A study of Rattus norvegicus with 8 samples.

Results

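The CC chemokines are small secreted proteins that attract leukocytes. The 9 of them described here are Ccl2, Ccl3, Ccl4, Ccl6, Ccl7, Ccl11, Ccl19, Ccl20 and Ccl27. They were taken by name: a probe set belonged if its only gene symbol in the platform annotation was one of these. Each gene had 1 such probe set, which gives 9 of 31042 tested probe sets, or 9 of 14217 genes with a probe set of their own. Transcript levels were measured in livers of male Wistar rats made cirrhotic by inhaled carbon tetrachloride (CCl4), a hepatotoxin. The 4 treated rats received an antiangiogenic treatment, meant to limit the growth of new vessels, and the 4 rats compared with them received vehicle by their labels and are called non-treated in the series description. All 8 rats were cirrhotic and, per the labels, the drinking water held phenobarbital at 0.3 g/L, so no healthy liver enters the comparison. Neither the compound nor its dose or duration is given in the sources used here. RNA of each liver went onto 1 array (Affymetrix Rat2302), and a value is a log2 intensity from robust multi-array average (RMA), on which a step of 1 is a doubling. With 4 arrays a group, their number limits the precision.

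Chemokines of this family carry 2 adjacent cysteines near the start of the mature protein and act through G protein-coupled CC receptors on leukocytes. Inflammatory members such as Ccl2, Ccl3, Ccl4 and Ccl7 are made on demand by macrophages, stellate cells and other liver cells after injury, largely through the transcription factor NF-kappaB. Ccl2 and its receptor Ccr2 are known for drawing blood monocytes into injured liver. Homeostatic members such as Ccl19 guide lymphocytes and dendritic cells into lymphoid tissue. The comparison asks how the levels of these signals in cirrhotic liver differ with antiangiogenic treatment, inflammatory infiltrate being among the stated interests of the study.

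Treated 3 and vehicle 4 were nearly identical: the median absolute deviation of their difference over all probe sets was 0.166, whereas the remaining 27 pairs had 0.251 to 0.404. The next closest pairs also crossed the groups, treated 4 with vehicle 3 (0.251) and with vehicle 1 (0.261). From the other treated arrays treated 4 differed by 0.354 to 0.376. Treated 3 and vehicle 4 stayed in the groups their labels give, and main results without both are given beside the results over all arrays where they moved most. The bacterial spike-in controls divided the arrays into 3 sets, each with as many treated as vehicle arrays: treated 1 with vehicle 1, treated 2 and 4 with vehicle 2 and 3, and treated 3 with vehicle 4. The hepatocyte gene Alb stood between 14.79 and 14.85 on all 8 arrays, and the 6 hepatocyte markers measured had list means of 13.42 to 13.63 on treated and 13.48 to 13.69 on vehicle arrays. Not every marker was even. Of these 6, Apoa1 stood lowest on treated 1 (12.23) and treated 2 (12.38), against 13.41 to 13.76 on the other arrays (difference −0.64).

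No CC chemokine passed the threshold. In limma, fitted over all 31042 probe sets with Benjamini-Hochberg adjustment, 0 of 9 had an adjusted p under 0.05 (smallest adjusted p = 0.979), where 0% of all probe sets did. Without vehicle 4 the number over all probe sets was 11, and without both nearly identical arrays it was 3, with 0 members among them. At an unadjusted p under 0.05 there were 2 of 9, Ccl27 and Ccl19, against 3.93% of all probe sets. Mean levels were lower in treated livers for 3 of 9 (45.3% of all probe sets) and higher for 6 of 9 (54.7%). The median difference, treated minus vehicle, was 0.095 over the 9 and 0.018 over all probe sets. The count depended on 1 liver: without treated 2 it was 6 of 9 that were lower, with a median of −0.14. The treated livers also varied more among themselves. The SD was larger in the treated than in the vehicle group for 7 of 9 members, against 55.6% of all probe sets.

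**Figure D1:**
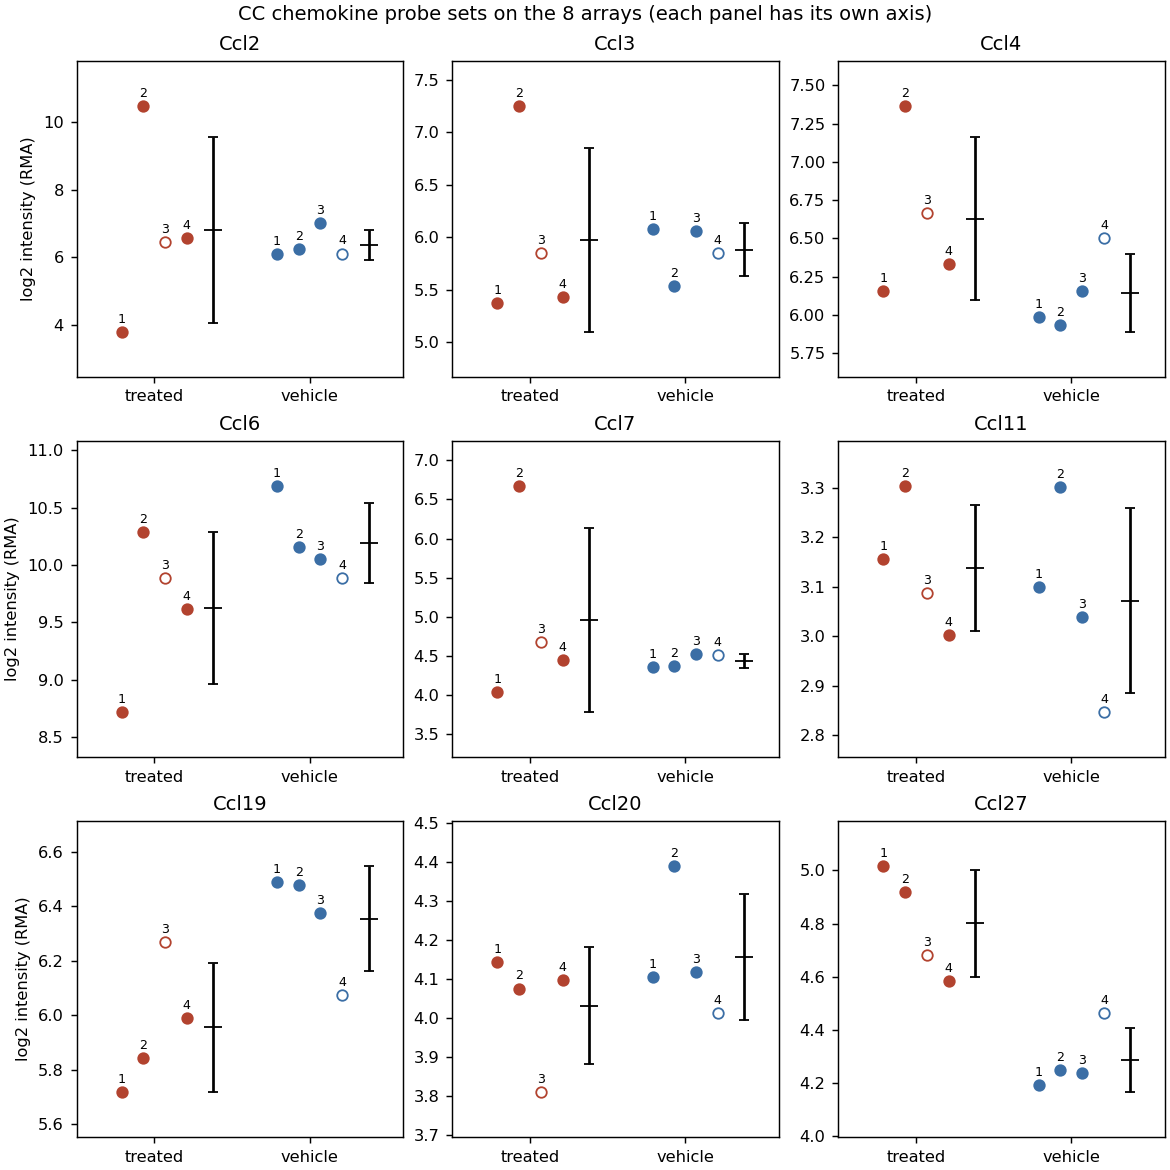
Log2 intensity of the 9 CC chemokine probe sets, 1 panel per gene, with treated arrays in red left of vehicle arrays in blue and the replicate number above each point; open circles are the nearly identical treated 3 and vehicle 4, and the bars to the right of each group are the mean ± SD (n = 4). Treated 2 is the highest point for Ccl2, Ccl3, Ccl4 and Ccl7, and for Ccl27 all treated points lie above all vehicle points.

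Ccl2 and Ccl7 attract monocytes and lie next to each other on chromosome 10. Both were far higher in 1 treated liver than in any other, with no common shift of the group. Ccl2 (1367973_at), the main ligand of Ccr2, stood at 3.80, 10.48, 6.45 and 6.56 on treated 1 to 4, against 6.09, 6.26, 7.02 and 6.12 on vehicle 1 to 4. The highest and the lowest of the 8 livers were thus both treated, and the other 2 treated livers lay inside the vehicle range. Treated 2 was 17.2-fold above the vehicle mean, and treated 1 differed from it by −2.57 on the log2 scale, at a value under the 25th percentile of its array. The group means were 6.82 ± 2.75 in treated and 6.37 ± 0.44 in vehicle livers (SD, n = 4 each), a difference of 0.45 with a 95% interval from −2.13 to 3.03 (limma adjusted p = 0.993). The difference was −0.77 without treated 2 and 1.46 without treated 1.

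Ccl7 (1379935_at), a ligand shared by several CC receptors, stood at 4.03, 6.67, 4.68 and 4.45 on treated 1 to 4, against 4.36, 4.36, 4.52 and 4.51 on vehicle 1 to 4. The vehicle livers were close together (SD 0.090), and treated 2 lay 4.70-fold above their mean. The difference of the means was 0.52 with an interval from −0.59 to 1.62 (limma adjusted p = 0.979), and −0.053 without treated 2. Treated 1 was the lowest of the 8 arrays for this gene too. In the 3 sets of arrays formed by the spike-in controls, the differences were −2.29, 1.88 and 0.33 for Ccl2 and −0.32, 1.12 and 0.16 for Ccl7.

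The promoter of Ccl7 is shown because this gene shared its peak in treated 2 with 3 other members, and those of Ccl20 and Ccl27 because they bear on the members described further on. The sequences are RefSeq's (build GRCr8), run from 250 bases before the start site to 50 after it, and were found for 5 of 9 members, Ccl6, Ccl7, Ccl19, Ccl20 and Ccl27. Capitals mark matches, on either strand, to the NF-kappaB consensus of 10 letters, to the AP-1 motif TGANTCA or to the TATA box TATAAA. Ccl7 lies on the plus strand (chr10:67513845-67514144), Ccl20 on the plus strand (chr9:91836909-91837208) and Ccl27 on the minus strand (chr5:61741730-61742029).
Ccl7: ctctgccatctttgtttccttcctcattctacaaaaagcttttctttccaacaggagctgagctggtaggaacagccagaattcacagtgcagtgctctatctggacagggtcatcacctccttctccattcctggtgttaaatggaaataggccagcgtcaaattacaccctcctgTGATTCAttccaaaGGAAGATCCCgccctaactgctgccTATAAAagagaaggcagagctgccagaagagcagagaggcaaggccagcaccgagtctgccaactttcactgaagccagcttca
Ccl20: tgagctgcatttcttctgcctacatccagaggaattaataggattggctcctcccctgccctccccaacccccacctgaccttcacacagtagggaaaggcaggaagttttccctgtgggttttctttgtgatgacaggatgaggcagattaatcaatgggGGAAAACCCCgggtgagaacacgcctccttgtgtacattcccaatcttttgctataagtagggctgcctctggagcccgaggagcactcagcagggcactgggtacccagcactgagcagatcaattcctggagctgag
Ccl27: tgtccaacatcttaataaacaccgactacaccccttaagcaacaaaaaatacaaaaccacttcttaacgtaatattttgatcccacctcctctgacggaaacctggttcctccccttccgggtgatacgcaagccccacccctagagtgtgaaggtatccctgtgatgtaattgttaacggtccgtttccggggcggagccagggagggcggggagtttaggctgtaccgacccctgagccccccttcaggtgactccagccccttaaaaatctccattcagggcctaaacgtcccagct
The Ccl7 window held 1 match to each motif, which do not overlap, with the NF-kappaB consensus at position −59 from the start site. The Ccl20 window held 1 match to the NF-kappaB consensus and 0 to the others, and the Ccl27 window held 0 in all. Of the 2 windows not shown, that of Ccl6 held 1 TATA box and that of Ccl19 held 0 matches. Among all 33469 promoters of the same length, 7.51% held the NF-kappaB consensus, 7.33% AP-1 and 14.2% the TATA box. A match describes the letters and not a bound site.

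Ccl3, Ccl4 and Ccl6 form a second group on chromosome 10, where they follow Ccl5 and Ccl9. Ccl3 and Ccl4, known as macrophage inflammatory proteins, had the same highest liver as Ccl2 and Ccl7. Ccl3 (1369815_at) stood at 5.37, 7.25, 5.85 and 5.43 on treated 1 to 4, against 6.08, 5.54, 6.06 and 5.86 on vehicle 1 to 4. Treated 2 was 2.58-fold above the vehicle mean while treated 1 and 4 lay below every vehicle liver. The difference of the means was 0.095 (95% interval −0.77 to 0.96, limma adjusted p = 0.996), and it was −0.33 without treated 2 and −0.02 without vehicle 2. An uncharacterised gene of the annotation, LOC103693406, overlaps both Ccl3 and Ccl6.

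Ccl4 (1370832_at) stood at 6.16, 7.36, 6.67 and 6.33 on treated 1 to 4, against 5.99, 5.94, 6.16 and 6.50 on vehicle 1 to 4. Of the 4 treated livers 2 lay above all vehicle livers, treated 2 by the widest margin (2.33-fold above the vehicle mean). The means were 6.63 ± 0.53 in treated and 6.14 ± 0.26 in vehicle livers (SD, n = 4 each), a difference of 0.48 (interval −0.095 to 1.06, limma adjusted p = 0.979), which was 0.24 without treated 2. In contrast to Ccl2, Ccl3 and Ccl7 its mean therefore stayed higher in treated livers without that array.

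Ccl6 (1389123_at), a chemokine known from mouse as a product of macrophages and other myeloid cells, was the member with the largest mean difference downwards. It stood at 8.72, 10.29, 9.88 and 9.62 on treated 1 to 4, against 10.69, 10.15, 10.05 and 9.88 on vehicle 1 to 4. Only treated 2 and treated 3 reached the vehicle range, and treated 3 and its near-copy vehicle 4 differed by 0.00028 at this gene. The means were 9.63 ± 0.66 in treated and 10.19 ± 0.35 in vehicle livers (SD, n = 4 each), a difference of −0.57 (interval −1.29 to 0.15, limma adjusted p = 0.979). Without treated 1 it was −0.26, and within the 3 spike-in sets it was −1.97, −0.15 and 0.00028. Most macrophage markers were lower beside it, though unevenly. Of 10 measured genes 8 were lower in treated livers (48.4% of all genes), and 0 passed. The median was −0.34, against 0.0061 over all genes. The number lower was 6 of 10 without treated 1 and 9 of 10 without treated 2. Adgre1 differed by −0.97, but Cd68 by −0.14 and Clec4f by −0.027 only. Cd163 and Cd14 were higher, by 0.18 and 0.88. Clec4f, Cd163 and Cd14 were named after their values were seen. List means ranged from 7.42 to 8.54 on treated and from 8.09 to 8.90 on vehicle arrays, and with 1 array left out the median lay between −0.72 (without treated 4) and −0.11 (without vehicle 3), with −0.55 without vehicle 2 and −0.12 without treated 1. In bulk tissue, fewer cells of a type and less RNA per cell cannot be told apart, and the part of these cells in the Ccl6 difference was not tested.

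**Figure D2:**
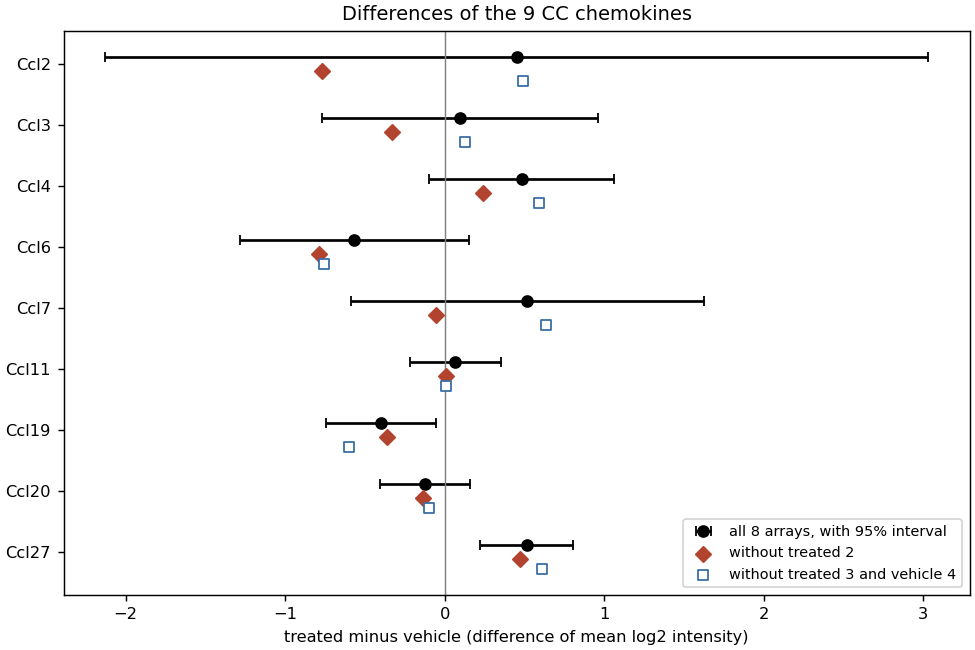
Treated minus vehicle difference of mean log2 intensity for the 9 CC chemokines, with the limma 95% interval over all 8 arrays (black), the value without treated 2 (red diamonds) and the value without both nearly identical arrays (open blue squares). Ccl2, Ccl3 and Ccl7 lie right of 0 with all arrays and left of it without treated 2, whereas Ccl27, Ccl4, Ccl6 and Ccl19 keep their side.

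Ccl2, Ccl3, Ccl4 and Ccl7 shared treated 2 as their highest liver. It was the highest of the 8 arrays for 5 of 9 members, Ccl2, Ccl3, Ccl4, Ccl7 and Ccl11, where 14% of all probe sets were highest on it. At Ccl11 it led by 0.0018 only. Treated 1 was the lowest array for 5 of 9, Ccl2, Ccl3, Ccl6, Ccl7 and Ccl19, against 13.6% of all probe sets. Treated 2 exceeded every other array by at least 1 log2 unit at Ccl2 (3.46), Ccl7 (1.99) and Ccl3 (1.17), a margin that 0.345% of all probe sets reached. Ranked by this margin among 14217 genes, Ccl2 was at place 2, Ccl7 at place 12, Ccl3 at place 41 and Ccl4 at place 115. The margin of Ccl6, Ccl19, Ccl20 and Ccl27 was negative, since another array was higher.

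Cytokines and NF-kappaB genes that induce or accompany these chemokines showed the same array. Of 19 measured genes of this list, called inducers for short, 11 were highest on treated 2 (11.9% of all genes) and 9 were lowest on treated 1 (15.4%). Of the 19, 4 were at or below the 25th percentile on all 8 arrays. The leads of treated 2 ranged from 0.0013 at Nfkb2, named after its values were seen, to 3.11 at Il6. At Fos the lead was 0.038. At Il13 it was 0.24, with 6 of 8 arrays at or below their 25th percentile. At Tnfsf11, named after its values were seen, the lead was 0.026, with all 8 arrays at or below that percentile. Between the groups 9 of 19 were lower and 10 higher, with a median of 0.0015 and 0 past the threshold, and 14 of 19 were lower without treated 2. Il1a (1368592_at), an interleukin that alarms neighbouring cells, stood at 5.46, 9.46, 6.83 and 5.78 on treated 1 to 4, against 7.30, 7.16, 6.74 and 6.83 on vehicle 1 to 4. Il6 (1369191_at), chosen after its values were seen, stood at 3.41, 7.05, 3.59 and 3.45 on treated 1 to 4, against 3.80, 3.67, 3.94 and 3.53 on vehicle 1 to 4. Only treated 2 departed from a narrow range at Il6, where 5 of 8 arrays were at or below their 25th percentile. Tnfaip3 (1385641_at), an NF-kappaB target that restrains the pathway and was also chosen after its values were seen, stood at 7.81, 12.03, 9.14 and 10.22 on treated arrays, against 9.68, 10.05, 9.68 and 9.30 on vehicle arrays. Treated 2 and treated 1 were again the extremes.

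Tnf (1387691_at), tumour necrosis factor, did not share this pattern. It stood at 5.19, 5.33, 4.96 and 4.76 on treated 1 to 4, against 5.13, 5.13, 4.93 and 5.54 on vehicle 1 to 4. The immediate early factor Fos (1375043_at) had the smallest unadjusted p of the inducers. It stood at 2.95, 9.27, 7.45 and 7.07 on treated 1 to 4, against 9.23, 8.51, 8.48 and 7.37 on vehicle 1 to 4 (difference −1.71, interval −4.29 to 0.86, limma adjusted p = 0.979). Treated 2 was level with vehicle 1 there, and treated 1 lay far below all others. The next inducers by unadjusted p were the interleukins Il13 and Il33, with differences of 0.15 and 0.47.

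**Figure D3:**
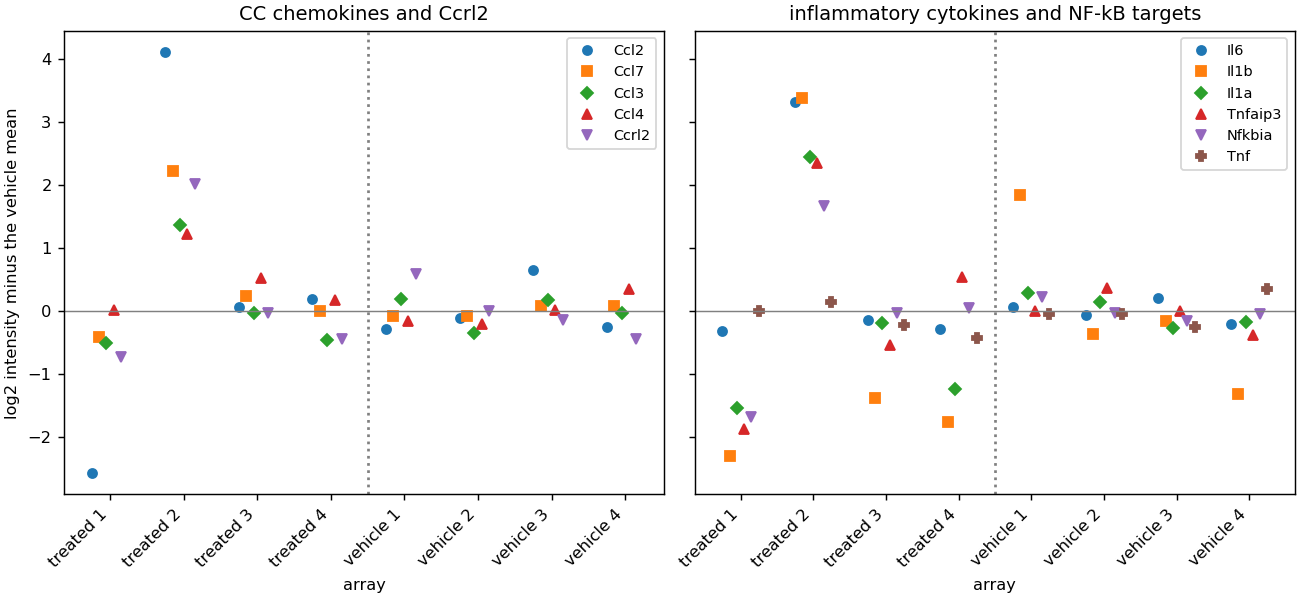
Log2 intensity minus the mean of the 4 vehicle arrays, by array, with treated arrays left of the dotted line and vehicle arrays right of it, for 4 CC chemokines and Ccrl2 (left) and for inflammatory cytokines and NF-kappaB targets (right). On treated 2 all 5 genes of the left panel and 5 of the 6 genes of the right panel stand well above 0, and Tnf stays near 0. The genes shown were picked with their values known, so these counts follow from the choice. Il6, Il1b, Tnfaip3 and Nfkbia lie outside the rule for named genes. Of all 19 measured inducers, 11 were highest on treated 2.

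Over the 8 arrays, the genes most like Ccl2 were measured by the mean absolute difference of values centred on each gene's own mean. The smallest were Cxcl1, a neutrophil chemokine (0.492), Egr2, an immediate early transcription factor (0.539), and Map3k8, a kinase of inflammatory signalling (0.542). Among the other members Ccl7 came nearest to Ccl2, at place 9 of all genes, followed by Ccl3 at place 65. For Ccl7 the nearest were Phlda1 (0.154), the endothelial selectin gene Sele (0.177) and Ugt2b7, a glucuronosyltransferase (0.246), with Ccl3 at place 4 and Ccl4 at place 24. These measures rest largely on treated 2, and the other 7 members did not vary enough (a span of at least 2 log2 units) to be compared in this way.

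Most markers of leukocytes that could carry these transcripts did not peak in the same liver. Treated 2 was highest at 2 of 5 neutrophil markers, 2 of 10 macrophage markers, 1 of 6 dendritic cell markers and 0 of 10 T cell markers, beside the 11.9% of all genes. Of these 2 neutrophil markers, S100a8 led by 0.063 only, and the other was at or below the 25th percentile on 6 of 8 arrays. The brighter S100a9 was highest on vehicle 1. The mean of the neutrophil list was 5.26 on treated 2, the highest of the 8 arrays, followed by 5.21 on vehicle 1, and the mean of the macrophage list was 8.33 on treated 2, inside the vehicle range. The part of these cells in the treated 2 values was not tested. Cd68 (1375010_at), a macrophage lysosomal protein, stood at 8.58, 9.29, 9.71 and 10.81 on treated 1 to 4, against 9.99, 9.09, 10.13 and 9.74 on vehicle 1 to 4, with treated 4 highest. Among 5 neutrophil markers 3 were lower in treated livers, with a median of −0.099 that turned to 0.036 without vehicle 1 and 0.019 without vehicle 2, and 0 passed. Stellate cell and myofibroblast markers, from cells that also make Ccl2, were lower at 6 of 8 (median −0.71), B cell markers at 1 of 3 (median 0.081) and hepatocyte markers at 3 of 6 (median 0.027), again with 0 past the threshold. The B cell median was −0.0065 without treated 1 and −0.016 without both nearly identical arrays, and the hepatocyte median stayed between 0.0011 and 0.042. The 3′ to 5′ signal ratio of Gapdh, a measure of RNA integrity, was 0.13 (log2) on treated 2, 0.29 to 0.40 on the other treated arrays and 0.19 to 0.41 on vehicle arrays. The same ratio of actin was 1.88 on treated 2, 1.77 to 1.87 on the other treated arrays and 1.70 to 1.91 on vehicle arrays. The part of RNA quality in the treated 2 values was not tested.

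Ccl27 and Ccl19 lie close together on chromosome 5 and differed in opposite directions. Ccl27 (1376850_a_at), known as a skin chemokine that binds Ccr10, was the only member whose groups did not overlap. It stood at 5.02, 4.92, 4.68 and 4.59 on treated 1 to 4, against 4.20, 4.25, 4.24 and 4.46 on vehicle 1 to 4. Every treated liver lay above every vehicle liver, as at 1.09% of all probe sets. The means were 4.80 ± 0.20 in treated and 4.29 ± 0.12 in vehicle livers (SD, n = 4 each), a level 1.43-fold higher (difference 0.51, SE 0.13, 95% interval 0.22 to 0.80). The unadjusted limma p was 0.0031 and the adjusted p 0.979. It was higher in each spike-in set, by 0.82, 0.51 and 0.22, and by 0.61 without both nearly identical arrays. The probe set was dim. Its mean over all arrays, 4.54, lay below the median of every array (5.16 to 5.3), and neither filter on dim probe sets kept it.

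In the RefSeq annotation Ccl27 overlaps Il11ra1, an interleukin receptor gene, and LOC102547621. The platform gives the probe set the symbol Ccl27 only, and whether its probes lie in the overlap was not checked. Il11ra1 (1370331_at) stood at 8.30, 7.40, 7.43 and 7.89 on treated 1 to 4, against 7.61, 7.61, 7.78 and 7.33 on vehicle 1 to 4. Its groups overlapped, with a difference of 0.17 (interval −0.30 to 0.64, limma adjusted p = 0.979), and −0.011 without treated 1. Treated 1 was the highest array at both probe sets, and the part of Il11ra1 in the Ccl27 values was not tested. Markers of keratinocytes, the cells Ccl27 is known from, showed 3 of 5 higher with a median of 0.0085, which was −0.064 without vehicle 2, and 0 past the threshold. Among them Ivl was at or below the 25th percentile on all 8 arrays and Krt5 on 7, so no direction is read from this list. Ccr10 (1378939_at), the receptor, differed by −0.14.

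Ccl19 (1391925_at), which draws Ccr7-bearing T cells and dendritic cells, stood at 5.72, 5.84, 6.27 and 5.99 on treated 1 to 4, against 6.49, 6.48, 6.37 and 6.08 on vehicle 1 to 4. Of the 4 treated livers 3 lay below all vehicle livers, and treated 3 lay above its near-copy vehicle 4. The means were 5.96 ± 0.24 in treated and 6.35 ± 0.19 in vehicle livers (SD, n = 4 each), 1.32-fold lower (difference −0.40, SE 0.15, interval −0.74 to −0.056). The unadjusted limma p was 0.027 and the adjusted p 0.979. Within the spike-in sets the differences were −0.77, −0.51 and 0.19, and without both nearly identical arrays it was −0.60 (adjusted p = 0.567, limma on 6 arrays).

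Ccl21 (1378015_at), the other Ccr7 ligand, made by lymphatic vessels and lymphoid stroma, lies beyond Ccl19 on chromosome 5. It had the largest difference of the 7 other CC chemokines measured. It stood at 5.49, 5.62, 6.06 and 7.75 on treated 1 to 4, against 10.66, 9.68, 10.05 and 5.97 on vehicle 1 to 4. Vehicle 1 to 3 lay above every treated liver, while vehicle 4 lay among the treated ones beside its near-copy treated 3. The means were 6.23 ± 1.04 in treated and 9.09 ± 2.12 in vehicle livers (SD, n = 4 each), a difference of −2.86 (interval −5.05 to −0.67, unadjusted p = 0.016, limma adjusted p = 0.979). It was −3.90 without vehicle 4 (adjusted p = 0.0896) and −3.84 without both nearly identical arrays (adjusted p = 0.339).

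Stromal and immune markers were lower beside Ccl19 and Ccl21. Of 7 markers of lymphatic and reticular stroma, a list that holds Ccl21 itself, 6 were lower in treated livers (median −0.30), with list means of 6.04 to 6.24 on treated and 6.06 to 7.49 on vehicle arrays. Lyve1 (1382192_at), a hyaluronan receptor of lymphatic and sinusoidal endothelium, stood at 8.28, 9.16, 8.74 and 8.88 on treated arrays, against 10.73, 9.98, 10.58 and 8.81 on vehicle arrays. T cell markers were lower at 8 of 10 (median −0.23) and dendritic cell markers at 6 of 6 (median −0.38), or 4 of 6 without vehicle 4. With 1 array left out, the dendritic cell median lay between −0.58 (without vehicle 4) and −0.16 (without treated 1), and it was −0.23 without vehicle 1. The stromal median lay between −0.51 (without vehicle 4) and −0.18 (without vehicle 2). Vehicle 4 was within the treated range at Lyve1 as at Ccl21. None of these genes passed the threshold (0 in each list), and the part of these cells in the Ccl19 difference was not tested.

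**Figure D4:**
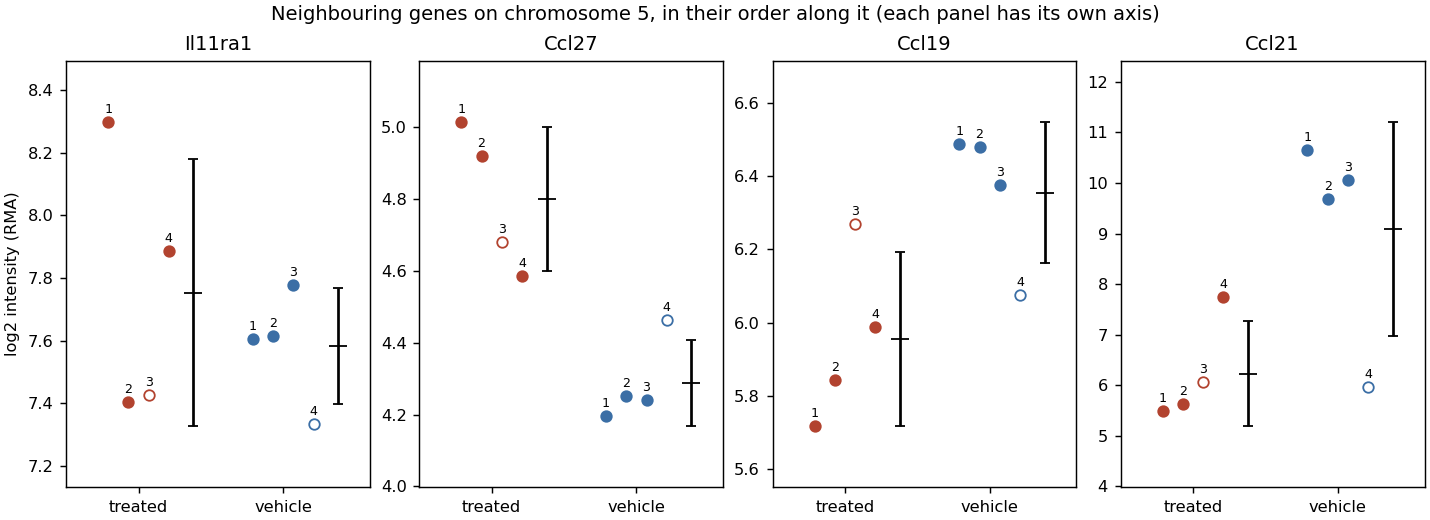
Log2 intensity of 4 neighbouring genes in their order along chromosome 5, with treated arrays in red left of vehicle arrays in blue, replicate numbers above the points, open circles for the nearly identical treated 3 and vehicle 4, and bars for the mean ± SD (n = 4). The groups do not overlap at Ccl27, and at Ccl21 vehicle 4 lies with the treated livers.

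Ccl20 and Ccl11 varied little. Ccl20 (1369814_at), the ligand of Ccr6 on T cells and dendritic cells and a known NF-kappaB target of bile duct cells, stood at 4.14, 4.07, 3.81 and 4.10 on treated 1 to 4, against 4.11, 4.39, 4.12 and 4.01 on vehicle 1 to 4. The whole span was 0.58, treated 2 lay inside the vehicle range, and the difference was −0.12 (interval −0.41 to 0.16, limma adjusted p = 0.979), or −0.05 without treated 3 and −0.046 without vehicle 2. Bile duct markers were lower at 5 of 5 (median −0.34, 0 past the threshold, and between −0.62 and −0.14 with 1 array left out). Ccl11 (1387319_at), eotaxin, which attracts eosinophils through Ccr3, averaged 3.14 ± 0.13 in treated and 3.07 ± 0.19 in vehicle livers (SD, n = 4 each), and ranged from 2.85 to 3.30 over the 8 arrays. Ccl11 was at or below the 25th percentile of every array (3.74 to 3.91), as were 17.6% of all probe sets, so no difference is read from it. The eosinophil granule genes Epx and Prg2 were at or below that percentile on all 8 arrays as well. Eosinophil and mast cell markers together were lower at 9 of 9 (48.4% of all genes; median −0.64, 0 past the threshold). With 1 array left out the median lay between −0.86 (without vehicle 4) and −0.43 (without vehicle 3). Epx and Prg2 differed by −0.097 and −0.041, the mast cell genes Cpa3 and Cma1 by −3.07 and −1.35. Cma1 was at or below that percentile on 5 of 8 arrays, and Fcer1a, whose difference is the median of −0.64, on 6. Il5ra and Kit, named after their values were seen, were so on 7 arrays each. The count of 9 therefore rests in part on dim genes, and no common direction is read from it. At Cpa3 vehicle 4 stood at 3.86, among the treated arrays (3.59 to 3.91), against 7.54 to 8.33 on vehicle 1 to 3.

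Receptors of this family, with the fractalkine receptor Cx3cr1 and the related Ccrl2 in the same list, were measured at 11 of 15 genes. Of these 0 passed (0% of all genes). In treated livers 7 of 11 were lower and 4 higher, against 48.4% and 51.6% of all genes. The median was −0.079, which is the value of Cx3cr1. The number lower was 9 of 11 without treated 2 (median −0.14) and 6 of 11 without vehicle 4 (median −0.033). Ccr1 (1370083_at), a receptor of Ccl3, Ccl6 and Ccl7 on myeloid cells, stood at 3.93, 4.23, 4.27 and 4.87 on treated 1 to 4, against 5.55, 4.50, 5.66 and 4.18 on vehicle 1 to 4. Vehicle 1 and 3 lay above all treated livers, and the difference was −0.65 (interval −1.45 to 0.16, limma adjusted p = 0.979), or −0.42 without vehicle 3. Ccr2 (1387742_at), the receptor of Ccl2, stood at 3.74, 3.30, 3.75 and 3.41 on treated 1 to 4, against 3.99, 3.83, 3.78 and 3.50 on vehicle 1 to 4. Ccr2 was at or below the 25th percentile on 6 of 8 arrays, as were Ccr3 and Ccr6, so no order of the livers is read from it, and its difference was −0.23 (interval −0.57 to 0.12).

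Ccr3, the eotaxin receptor, had the smallest unadjusted p of the receptors (0.077, limma adjusted p = 0.979) and averaged 3.97 ± 0.35 in treated and 3.60 ± 0.19 in vehicle livers (SD, n = 4 each). Ccr6, the Ccl20 receptor, differed by −0.24, Ccr4 by −0.053 and the fractalkine receptor Cx3cr1 by −0.079. Of the atypical receptors, which bind chemokines without guiding migration, Ackr1, Ackr2 and Ackr4 differed by 0.17, 0.068 and −0.24. Ccrl2 (1398591_at), a related non-signalling receptor induced by inflammatory stimuli, stood at 4.40, 7.15, 5.10 and 4.68 on treated 1 to 4, against 5.71, 5.12, 4.99 and 4.68 on vehicle 1 to 4. It was the 1 receptor of 11 highest on treated 2, by 1.43 log2 units, with a difference of 0.21 over all arrays and −0.40 without that array.

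Of the other CC chemokines, 7 of 11 were measured, 6 of them lower in treated livers, with a median of −0.18 and 0 past the threshold. Without treated 4 the median was −0.093. Ccl5 (1369983_at), a T cell and natural killer cell product, stood at 5.90, 5.24, 6.13 and 6.60 on treated 1 to 4, against 7.01, 6.82, 5.92 and 6.05 on vehicle 1 to 4. Treated 2 was the lowest of the 8 for Ccl5, the reverse of its place for Ccl3 and Ccl4. Ccl9 (1392172_at), known from mouse as a myeloid chemokine and the neighbour of Ccl6, stood at 13.05, 12.68, 12.96 and 13.28 on treated arrays, against 13.52, 13.50, 13.06 and 12.91 on vehicle arrays. The differences were −0.48 for Ccl5 (interval −1.23 to 0.27) and −0.26 for Ccl9 (interval −0.67 to 0.16). Without treated 2 they were −0.24 and −0.15, and without vehicle 1 they were −0.29 and −0.17. Ccl17, Ccl22 and Ccl24 differed by −0.054, −0.083 and −0.18, and Ccl28 by 0.20.

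**Figure D5:**
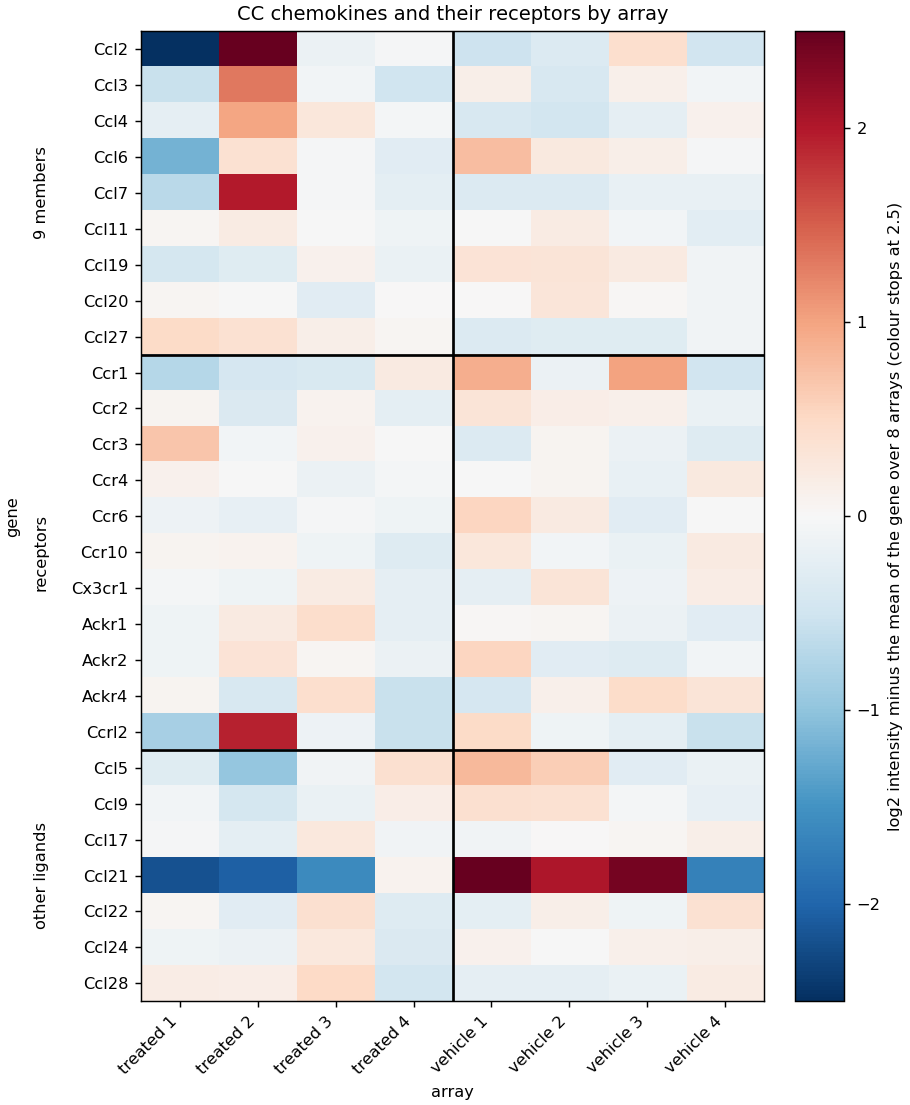
Log2 intensity minus the gene's mean over the 8 arrays (colour scale, stopping at 2.5 in either direction) for the 9 CC chemokines, 11 receptors and 7 other CC chemokines, with treated arrays left of the vertical line and vehicle arrays right of it. Ccl2, Ccl3, Ccl4, Ccl7 and Ccrl2 are darkest red on treated 2, and Ccl21 is red on vehicle 1 to 3 only.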

How the data were processed

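The deposited values are log2 intensities of 31099 probe sets on 8 arrays. The submitters' processing notes name affy and RMA, which corrects background, normalizes by quantiles and summarises probes, and which shrinks differences of dim probe sets. No version is given in the sources used here. The deposited log2 values were used as they are, without 57 control probe sets, and arrays were grouped by their titles. In the platform annotation 20826 probe sets had 1 gene symbol, 436 several and 9780 none listed. Differences are treated minus vehicle, fitted by lmFit and eBayes of limma 3.58.1 (in R 4.3.3) to all 8 arrays without covariates, with Benjamini-Hochberg adjustment over 31042 probe sets; the procedure was tested on simulated data. Nothing says that the livers were processed independently, so that p-values measure the spread between these arrays. The brightest probe set stood for a gene in the lists. The members, the 14 lists, the rule for named genes (all members, receptors and other CC chemokines; the 3 smallest unadjusted p and the first 2 genes of other lists; the 3 genes most like a member) and the alternatives were chosen with earlier results of these data known.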

Additional observations from a re-analysis of the deposited data

Results flagged for a closer look

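Of 54 groups of 4 arrays examined (9 members, 11 receptors and 7 other CC chemokines in each group), 1 had an array far from its fellows, where chance gives about 1 in 20. Ccl28, a mucosal chemokine, stood at 3.98 on vehicle 4, against 3.54 to 3.60 on the other vehicle arrays, and its near-copy treated 3 stood at 4.26. The peaks of Ccl2, Ccl3, Ccl4 and Ccl7 on treated 2 did not meet this criterion, because the other treated arrays also spread.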

How the results depend on the processing

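Of the 9 members 0 were called under all 17 alternatives that were run, among them quantile normalization, median centring, 2 filters on dim probe sets, trend and robust settings, both blocks and each array left out. The filters kept 4 members (mean of at least 6) and 6 (mean above the 40th percentile), and averaging a gene's probe sets gave the same value, since each member has 1. Neither filter kept Ccl11, Ccl20 or Ccl27. Over all probe sets the count called was 3 without both nearly identical arrays, and between 0 and 11 (without vehicle 4) with 1 array left out. The number of members lower in treated livers was 3 to 6 with 1 array left out, the highest without treated 2. The Ccl2 difference ranged from −0.77 (without treated 2) to 1.46, that of Ccl3 from −0.33 (without treated 2) to 0.30 with a second negative value of −0.02 without vehicle 2, that of Ccl7 from −0.053 (without treated 2) to 0.83, and that of Ccl11 from −0.0091 (without vehicle 4) to 0.14. The other 5 members kept their direction under every alternative that gave them a value. With the replicate number as a block, 0 probe sets and 0 members were called. The deviations of same-numbered arrays from their group means correlated between −0.62 and 0.041, so no pairing by number was seen. With 4 arrays a group this check cannot exclude such a pairing. The values hold no signal over background, which limits the dim Ccl11, Ccl20 and Ccl27 most.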
